A study of Homo sapiens with 8 samples.

Results

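Open chromatin was compared between KO_C5 and KO_D2, the 2 ZBTB48 knockout (KO) clones of U2OS, a human osteosarcoma cell line. Each clone gave 1 untreated library and 1 library of cells given 250 U/ml interferon gamma (IFNγ), so 4 of the 8 libraries of the series are compared here. Its duration is uncertain, since the labels give 24 h and the study describes this assay with a longer exposure. The other 4 libraries came from clones WT_4 and WT_5 with intact ZBTB48, treated in the same way, and are used here only to see which KO clone departed from them. All cells share the U2OS background, each genotype is represented by 2 clones, and no library had a second preparation from the same clone and treatment. A difference between KO_C5 and KO_D2 is a difference between 2 lines of the same engineered genotype, so neither the knockout nor IFNγ is contrasted in it.

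FAIRE-seq sequences the DNA that stays in solution when formaldehyde has fixed nucleosomes to the rest, and a peak marks a stretch of open chromatin. Open chromatin lies mostly at promoters of active genes, around the transcription start site (TSS), and at distal enhancers, where factors such as AP-1 and RUNX proteins bind. Cancer cell lines such as U2OS carry rearranged chromosomes, and cells within a line can differ in how many copies of a chromosome segment they hold. Clones grown from single cells fix such differences, along with differences in which enhancers are open. In pooled cells, a segment present in more copies and a site that is open more widely or in more of the cells cannot be told apart by peak strength. ZBTB48 is a zinc finger protein that binds telomeric repeats and several gene promoters.

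Over the 4 KO lists, overlapping peaks on chromosomes 1 to 22 and X (1 bp or more) merged into 34755 regions. A region was KO_C5-only where both KO_C5 libraries and neither KO_D2 library had a peak, and KO_D2-only in the reverse case. This gave 1346 KO_C5-only regions (3.87% of all regions) and 276 KO_D2-only regions (0.794%), beside 12495 regions found in all 4 lists. A region without a peak in a list was below that list's calling limit, which does not show that it was closed.

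The KO_C5 lists were the longer ones in both treatments. KO_C5 had 19255 peaks untreated and 27457 after IFNγ, and KO_D2 had 16730 and 24727. The mean was 23356 ± 5799.7 in KO_C5 and 20728.5 ± 5654.7 in KO_D2 (SD, n = 2 libraries each). The difference was smaller than the spread between the libraries of a clone, which differ in treatment (exact permutation p = 0.667, two-sided, adjusted p = 0.889 over 4 measures). Within a treatment, KO_C5 had 2525 more peaks untreated and 2730 more after IFNγ. The IFNγ library had 8202 more peaks than the untreated one in KO_C5 and 7997 more in KO_D2. Without the KO_C5 IFNγ library the difference turned to -1473.5 peaks, and without the untreated KO_D2 library to -1371 peaks. In these 2 cases treatment is unbalanced between the clones, so the change of sign is not a difference between clones alone. With 2 libraries per clone this test cannot give a p below 0.333. Peaks within 1 kb of a TSS made up 66.5% and 58.7% of the KO_C5 lists (untreated, then IFNγ) and 76.2% and 60.8% of the KO_D2 lists (exact permutation p = 0.667). The share beyond 10 kb was 19.1% and 19.6% in KO_C5 against 11% and 18.2% in KO_D2, and here the clones did not overlap (exact permutation p = 0.333, the lowest possible, adjusted p = 0.889). With the lists cut to equal length, as described below, this separation was lost, at 15% and 11.9% in KO_C5 against 11% and 11.9% in KO_D2. The median fold enrichment was 11.8 and 11 in KO_C5 and 13.1 and 9.22 in KO_D2 (exact permutation p = 1), and at equal length 14.1 and 18.7 against 13.1 and 13.5, where the clones did not overlap. The lists were not most alike within a clone. The overlap of 2 lists, as shared over all regions of the pair, was 0.485 within KO_C5 and 0.561 within KO_D2, beside 0.542 between the untreated and 0.590 between the IFNγ libraries of the clones. Promoters of 10 to 13 of 20 osteoblast lineage genes had a peak in the KO libraries, against 2 or 3 of 14 blood cell genes and 3 or 4 of 14 epithelial genes. Of all 19970 protein-coding genes, 11537 to 12869 had one. The osteoblast share was thus near that of all genes, and the other 2 lists were below it. ZBTB48 itself had a promoter peak in all 4 KO libraries, and peak lists do not show the edited allele.

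Which clone had more regions of its own depended on the length of the lists. When each of the 4 lists was cut to its 16730 strongest peaks by −log10 p, the order turned around, with 445 KO_C5-only regions (1.87% of 23745 regions) and 558 KO_D2-only regions (2.35%). Of the 1346 KO_C5-only regions 230 (17.1%) were KO_C5-only again at equal length, and of the 276 KO_D2-only regions 148 (53.6%) were KO_D2-only again. Both sets were therefore described with all peaks and at equal length. Leaving out a library also moved the counts, since a region then needs fewer lists. KO_C5-only regions numbered 6642 without the untreated KO_C5 library, 4213 without the KO_C5 IFNγ library, 1826 without the untreated KO_D2 library and 2678 without the KO_D2 IFNγ library. In the same order, KO_D2-only regions numbered 343, 2730, 4056 and 616, so KO_D2 had the larger set once the untreated KO_D2 list was left out.

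Clone-only regions were weak in both clones. A peak's percentile is its rank by −log10 p within its own list, from 0 to 100. The mean percentile over the clone's libraries had a median of 24.4 for KO_C5-only regions and 25.2 for KO_D2-only regions. Only 42 KO_C5-only regions (3.12%) and 7 KO_D2-only regions (2.54%) lay above the 50th percentile in both libraries of their clone. The median number of fragments over the summit, called the summit pileup here, was 17 in each KO_C5 library at KO_C5-only regions. At KO_D2-only regions it was 15 in the untreated and 25 in the IFNγ library of KO_D2. Over all peaks of a library the median pileup was between 34 and 39.

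Clone-only regions lay at promoters far less often than the regions both clones shared. Within 1 kb of a TSS lay 35.2% of KO_C5-only regions and 38.8% of KO_D2-only regions, against 86.1% of the regions in all 4 lists and 51.7% of all regions. More than 10 kb away lay 39.9% of KO_C5-only and 31.2% of KO_D2-only regions, against 6.19% of the regions in all 4 lists. Over 100 kb from any TSS lay 92 KO_C5-only regions (6.84%) and 1 KO_D2-only region (0.362%). At equal length these were 5 and 2 regions, and the shares within 1 kb were 45.2% and 42.5%. Regions found in a single KO list were at least as distal, with 25.2% of them within 1 kb.

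**Figure D1:**
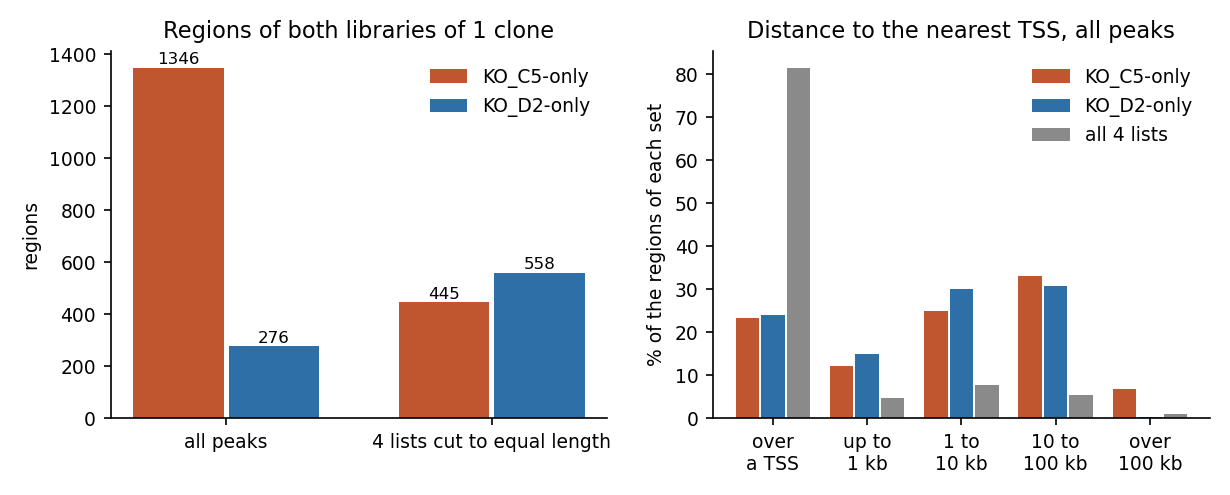
Left, number of regions with a peak in both libraries of 1 clone and none of the other, for all peaks and for 4 lists of equal length. KO_C5 has 1346 against 276 with all peaks, and 445 against 558 at equal length. Right, share of each set (%) by distance to the nearest TSS, where 81.3% of the regions in all 4 lists lie over a TSS.

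The genes nearest to clone-only regions were less often protein-coding. A protein-coding gene was nearest for 57.3% of KO_C5-only and 60.5% of KO_D2-only regions, against 85.5% of the regions in all 4 lists. Long non-coding RNA genes were nearest for 24.2% and 25.0%, against 9.92%, and pseudogenes for 12.9% and 10.9%, against 2.99%. By position, 500 KO_C5-only regions (37.1%) touched introns but no exon, 422 (31.4%) were intergenic and 424 (31.5%) touched an exon. KO_D2-only regions divided into 88 intronic (31.9%), 90 intergenic (32.6%) and 98 exonic regions (35.5%). The KO_C5-only and KO_D2-only sets were thus alike in position, and each differed from the shared regions in the same direction.

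Most clone-only regions were open in a WT clone as well. A peak in at least 1 WT library overlapped 1130 KO_C5-only regions (84.0%) and 239 KO_D2-only regions (86.6%), near the 82.9% of all regions. KO_C5-only regions had a peak in 44.7% of cases in WT_4 untreated, 27.7% in WT_4 IFNγ, 57.2% in WT_5 untreated and 72.7% in WT_5 IFNγ. For KO_D2-only regions these shares were 48.2%, 45.7%, 54.7% and 63.8%. At equal length all but 1 of the KO_C5-only regions and all but 23 of the KO_D2-only regions had a WT peak (99.8% and 95.9%), against 93.5% of all regions. The regions found in both WT_4 libraries and in neither WT_5 library included 15 KO_D2-only regions (5.43% of that set), against 11 KO_C5-only regions (0.817%) and 0.489% of all regions. At equal length these were 9 KO_D2-only regions (1.61%) and 2 KO_C5-only regions (0.449%), against 0.476% of all regions. In the opposite case, with both WT_5 libraries and no WT_4 library, the shares were 14.9%, 19.2% and 17.4%.

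The strongest KO_C5-only region was at chr16:46386276-46386579 (GRCh38), an intergenic site beside the centromere, 91860 bp from the lncRNA gene ENSG00000290429. Its summit pileup was 70 fragments in KO_C5 untreated and 78 in KO_C5 IFNγ, with no peak in the 2 KO_D2 and 4 WT libraries. A second KO_C5-only region lay nearby at chr16:46399957-46400192, with pileups of 53 and 47. The 101 bases around the first summit, on the plus strand, are shown because they are made of the pentamer GAATG and its variants, a repeat known from human satellite DNA. Capitals mark its 6 exact copies.
KO_C5-only, chr16:46386398-46386498: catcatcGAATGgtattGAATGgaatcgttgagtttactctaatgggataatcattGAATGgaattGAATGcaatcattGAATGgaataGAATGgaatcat
Windows of 201 bases around the summit with at least 8 copies of GAATG or its complement CATTC occurred in 9 KO_C5-only regions (0.669%), in 0 of 276 KO_D2-only regions and in 20 of the 12495 regions in all 4 lists (0.160%). The regions in all 4 lists lay mostly at promoters, and the share over all regions was not computed. With so low a share, 276 regions are too few to set the clones apart.

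Promoters led the rest of the KO_C5-only list. At chr7:129779918-129780618, over the TSS of the lncRNA gene ENSG00000286380, the pileup was 67 untreated and 56 after IFNγ. The promoter of YBX2, a Y-box RNA-binding protein of germ cells, had a region at chr17:7294528-7294998 with pileups of 60 and 65, and all 4 WT libraries had a peak there. The promoter of CDKN2B, which encodes the cell cycle inhibitor p15, had a region at chr9:22009200-22009611 with pileups of 55 and 56, and a peak in both WT_5 but in no WT_4 library. Both of these promoters thus lacked a peak in KO_D2 under either treatment. PHF19, a partner of the Polycomb complex PRC2, had pileups of 43 and 54 in KO_C5. GSTO2, a glutathione transferase, had 49 and 82. AHDC1 had 42 and 67, and COPS6, a subunit of the COP9 signalosome, had 53 and 57. Weaker in the untreated library were the kinase gene DYRK1B (30 and 82) and the homeobox gene IRX5 (34 and 41), while SCUBE1 (57 and 34) and GREB1L (50 and 40) were stronger there. Outside coding promoters, by the rule of 500 bp, lay the regions near ARHGAP45 (60 and 52), 925 bp from its TSS, and near MC1R, the melanocortin receptor gene (50 and 86), 623 bp from its TSS. An intergenic region near the pseudogene ENSG00000271219 on chromosome 8 had pileups of 93 and 48.

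The KO_D2-only list was led by an intergenic region at chr22:35430852-35431210, which lay 19413 bp from MCM5, a gene of the replicative helicase. Its pileup was 49 in KO_D2 untreated and 78 in KO_D2 IFNγ, and all 4 WT libraries had a peak there, so KO_C5 alone lacked one. A region over the lncRNA gene ENSG00000259130 on chromosome 14 had pileups of 48 and 73. A region 16939 bp from SYT3 had pileups of 47 and 51, and its WT peaks were in both WT_4 libraries and in neither WT_5 library. The same held for an intronic region of ARHGAP42 with pileups of 29 and 64, and for the promoter of ENOSF1 with 46 and 40. Among promoters, PRKCZ, an atypical protein kinase C, had pileups of 45 and 44 at chr1:2133114-2133739. TGM2, transglutaminase 2, had 40 and 65, and TRIM59, a ubiquitin ligase, had 43 and 44. These 3 promoters had a peak in all 4 WT libraries. TRAF2, an adaptor of tumour necrosis factor receptors, had a promoter region with pileups of 20 and 80 and no peak in any WT library. Further KO_D2-only promoters were those of C15orf48 (23 and 39), PAWR (31 and 25), the cytokine receptor kinase gene JAK3 (22 and 42), the exocyst gene EXOC7 (34 and 44) and HES6, a member of the HES repressor family (32 and 25). PRKCZ, TRAF2, EXOC7 and HES6, and in the KO_C5-only list PHF19, GSTO2 and AHDC1, had a separate peak within 500 bp of one of their annotated TSS in at least 1 library of the other clone, so the region and not the gene was restricted to a clone. The remaining strong KO_D2-only regions lay near ENSG00000287339 on chromosome 12 (45 and 36) and near PRKAR1B-AS2 on chromosome 7 (40 and 69).

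Promoters were also counted by gene. A gene was counted where a peak lay within 500 bp of any of its TSS, and of 13349 protein-coding genes with such a peak in a KO library 251 were KO_C5-only (1.88%) and 42 KO_D2-only (0.315%). At equal length the counts were 112 and 105 of 12633. Of the genes for SOX, PAX, TBX, GATA and LHX developmental factors, 4 of 30 with a peak were KO_C5-only (GATA6, SOX18, SOX21 and TBX21) and 0 were KO_D2-only. At equal length GATA6 alone was left, as 1 of 23. Of ZNF genes, 6 of 437 were KO_C5-only (ZNF385A, ZNF469, ZNF512B, ZNF532, ZNF69 and ZNF727) and 0 KO_D2-only, against 2 and 4 of 413 at equal length. Of solute carrier genes, SLC1A2 and SLC24A4 were KO_C5-only among 223 and 0 were KO_D2-only, while at equal length 2 other genes were found for each clone. Of TRIM genes, TRIM67 and TRIM7 were KO_C5-only and TRIM59 was KO_D2-only among 42. Single members were KO_C5-only in the lists of imprinted genes (IGF2), p53 and RB pathway genes (CDKN2B), cadherins (CDH11), WNT and FZD genes (WNT5A), osteoblast lineage genes (PTH1R) and olfactory receptors (OR14A2). Single members were KO_D2-only among collagens (COL7A1) and integrins (ITGB2). At equal length CDKN2B, COL7A1, ITGB2 and TRIM59 were again restricted to their clone, and TRIM67, TRIM7, IGF2, CDH11, WNT5A, PTH1R and OR14A2 were not. No member was restricted to a clone among 79 ribosomal protein, 25 HOX, 20 FGF, BMP and TGFB ligand, 16 telomere and ALT, 13 AP-1, 7 keratin, 5 epithelial, 4 cancer testis antigen, 4 clustered protocadherin, 3 blood cell and 2 X inactivation genes with a peak, when all peaks were used. At equal length, HOXA3, FGF2, RPL17, MAGEC1 and PCDHAC2 of these lists were KO_D2-only.

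Interferon genes had promoter peaks in both clones. Of 60 interferon genes, KO_C5 had a promoter peak at 21 untreated and 37 after IFNγ, and KO_D2 at 25 and 39. Over all 19970 protein-coding genes these counts were 11537 and 12869 in KO_C5, and 11586 and 12377 in KO_D2. None of the 40 with a peak in any KO library was restricted to a clone. Over all protein-coding genes with a peak, 1.88% were KO_C5-only and 0.315% KO_D2-only, so 0 of 40 does not set interferon genes apart. CIITA, the master activator of MHC class II genes and a reported ZBTB48 target, had a promoter peak after IFNγ in both clones. It had none in either untreated library, and none at equal length. Both WT clones also had a peak after IFNγ and none untreated. The study ties ZBTB48 to promoter pIII of CIITA. The count takes any annotated TSS of the gene, so it does not show at which CIITA promoter the peak lay. Of 4 MHC class II genes with a peak, 0 were restricted to a clone, and so few genes cannot be set against those shares. Of the other reported targets, SNX15 and PXMP2 had a peak in all 4 KO libraries, and MTFP1 and VWA5A had none.

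Several clone-only regions lay beside each other at some genes. Of the 1346 KO_C5-only regions 297 (22.1%) started within 100 kb of another, and of the 276 KO_D2-only regions 39 (14.1%). Such a share rises with the size of a set, and sets of equal size were not compared. The 2 shares therefore do not show which set was more clustered. SHROOM3, an actin regulator gene on chromosome 4, had 5 KO_C5-only regions within its body or 10 kb around it, out of 14 regions of any kind there. PTPRM, a receptor tyrosine phosphatase gene, had 4 of 18. CUEDC1 had 3 of 12, TTC28 had 3 of 11, and NFIC, which encodes a CCAAT-binding factor, had 3 of 17. None of these 5 genes had a KO_D2-only region. At equal length 0 of the 5 regions of SHROOM3, 1 of 4 of PTPRM, 2 of 3 of CUEDC1 and 1 of 3 each of TTC28 and NFIC were KO_C5-only. For KO_D2, all genes with at least 3 clone-only regions were neighbours on chromosome 7. UNCX, a homeobox gene, had 4 KO_D2-only regions among 8. ADAP1 and COX19 overlap and shared 4. PRKAR1B had 3 of 19, and GET4, whose 3 regions also count for its neighbour SUN1, had 3 of 6. All of these regions had a peak in a WT library, and none of the genes had a KO_C5-only region. At equal length 1 region of UNCX, 0 of ADAP1 and COX19, 2 of PRKAR1B and 1 of GET4 were KO_D2-only.

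That segment of chromosome 7 stood out among chromosomes. Chromosome 7 held 36 KO_D2-only regions, 13.0% of that set against 5.08% of all regions, and 31 of them lay in its first 10 Mb, where 359 regions held 0 KO_C5-only ones. At equal length the same 10 Mb held 27 KO_D2-only and 0 KO_C5-only regions. Chromosome 15 held 18 KO_D2-only regions (6.52% of the set) and 23 KO_C5-only regions (1.71%), against 3.14% of all regions. Chromosomes 20 and 22 leaned the other way. Chromosome 20 held 61 KO_C5-only regions (4.53%) and 6 KO_D2-only regions (2.17%), and chromosome 22 held 46 (3.42%) and 2 (0.725%). At equal length chromosome 15 had 6 KO_C5-only and 38 KO_D2-only regions, chromosome 20 had 30 and 13, and chromosome 22 had 27 and 7. As shares of each set, the direction was the same in both versions on these 4 chromosomes, although on chromosome 7 as a whole the shares at equal length were close (5.39% and 6.63%).

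**Figure D2:**
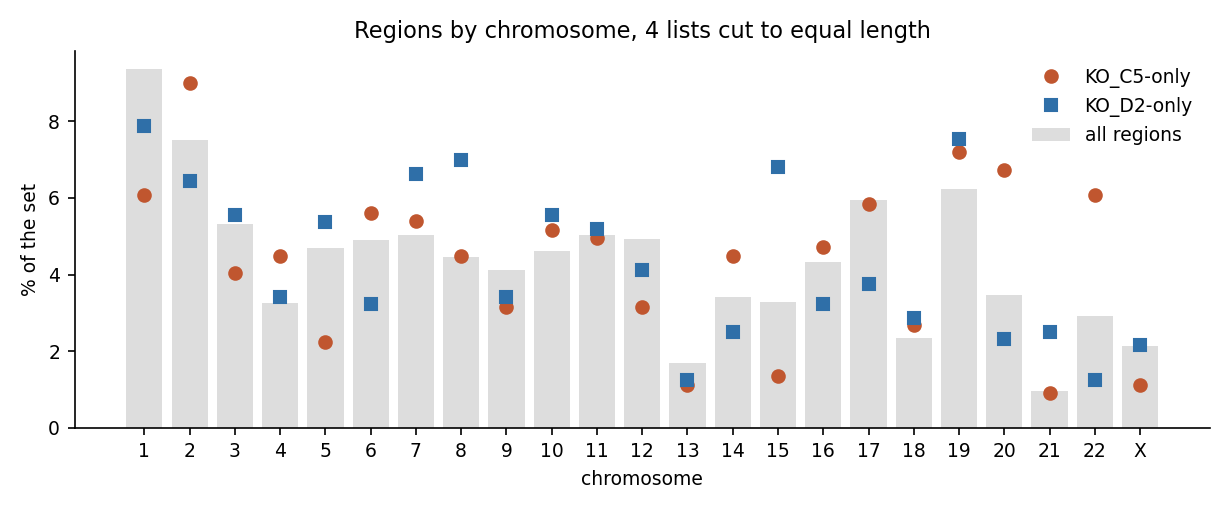
Share of KO_C5-only regions (circles) and KO_D2-only regions (squares) on each chromosome, in % of the set, with 4 lists of equal length, over the share of all regions (bars). Chromosome 15 has 6.81% of the KO_D2-only and 1.35% of the KO_C5-only regions, and chromosome 22 has 1.25% and 6.07%.

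The regions that both clones shared differed in strength in the same chromosome segments. For the 12495 regions in all 4 lists, the log2 ratio of the summit pileup of KO_C5 to that of KO_D2 was taken within each treatment and centred on its median. Its median was then taken over 10 Mb windows with at least 20 such regions, of which there were 231. The untreated and the IFNγ ratio share no library. In 179 windows both had the same sign, and across windows they were related with a Pearson r of 0.834 (Spearman rho 0.742), given as a description since windows share their libraries. Single regions followed each other less, with r = 0.375. All 18 windows at or above 0.3 in the untreated libraries were above 0 after IFNγ, between 0.15 and 0.66, and 12 of them were at least 0.3 again. Of the 31 windows at or below -0.3 untreated, 30 were below 0 after IFNγ and 21 were at or below -0.3, with a range from -0.89 to 0.02. The clones thus differed by segment in the same direction in separate libraries.

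**Figure D3:**
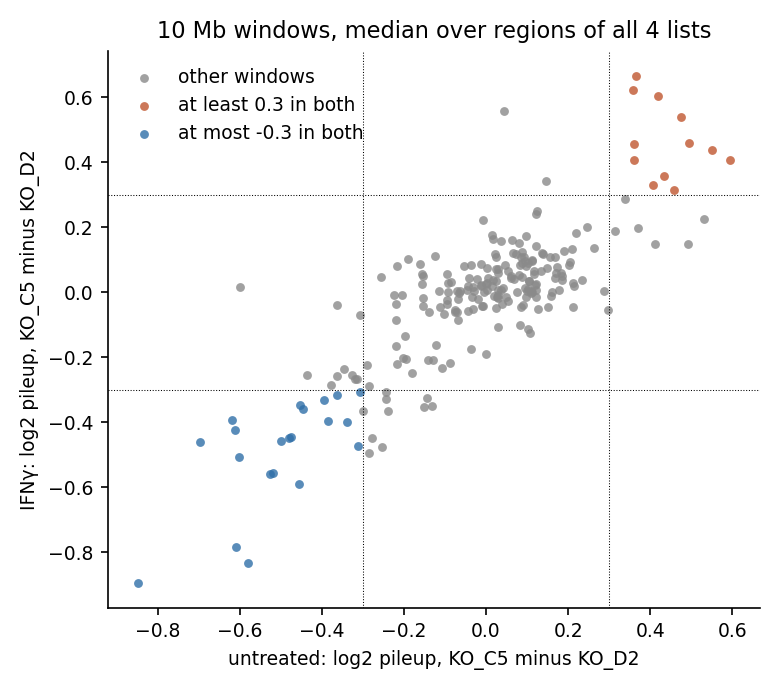
Median log2 summit pileup of KO_C5 minus KO_D2 in 231 windows of 10 Mb, untreated libraries on the x axis and IFNγ libraries on the y axis, with dotted lines at 0.3 and -0.3. Of the windows 12 lie at or above 0.3 in both treatments and 21 at or below -0.3 in both, and they range along one diagonal.

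Clone-only regions were unevenly spread over these windows. The 12 windows with higher pileup in KO_C5 in both treatments held 7.67% of the regions in the 231 windows, 14.2% of the KO_C5-only and 2.42% of the KO_D2-only regions. The 21 windows with higher pileup in KO_D2 held 7.64% of the regions, 3.64% of the KO_C5-only and 31.0% of the KO_D2-only regions. At equal length the first windows held 20.8% of the KO_C5-only and 2.35% of the KO_D2-only regions, and the second held 1.96% and 23.7%. The other 198 windows still held most of both sets, 82.1% of the KO_C5-only and 66.5% of the KO_D2-only regions. Pileup at regions in all 4 lists was not used to choose the clone-only regions, but both come from the same libraries, and no test was made between them.

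The segments with higher pileup in KO_D2 included the starts of chromosomes 1 and 7. In the first 10 Mb of chromosome 7, the median log2 difference over 86 shared regions was -0.58 untreated (quartiles -0.93 and -0.42) and -0.83 after IFNγ (quartiles -1.04 and -0.66), or 1.49-fold and 1.78-fold higher in KO_D2. In the first 10 Mb of chromosome 1, which holds PRKCZ, it was -0.61 and -0.78 over 81 regions, with 12 KO_D2-only and 5 KO_C5-only among 237 regions. On chromosome 4 from 180 to 190 Mb it was -0.85 and -0.89 over 21 regions, or 1.80-fold and 1.86-fold, the widest gap of all windows. On chromosome 15 from 70 to 90 Mb it was -0.36 and -0.43 over 130 regions, and over all 412 shared regions of chromosome 15 it was -0.30 and -0.38. Chromosomes 2, 3, 5, 8 and 18 had further segments of this kind.

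The segments with higher pileup in KO_C5 were fewer and one was long. From 30 Mb to the end of chromosome 20, 272 shared regions had a median log2 difference of 0.44 untreated (quartiles 0.07 and 0.70) and 0.36 after IFNγ (quartiles 0.13 and 0.59), with 56 KO_C5-only and 3 KO_D2-only among 917 regions. On chromosome 7 from 90 to 110 Mb, which holds COPS6, it was 0.47 and 0.56 over 99 regions, with 25 KO_C5-only and 0 KO_D2-only among 270. On chromosome 4 from 70 to 80 Mb, around SHROOM3, it was 0.36 and 0.62, with 19 KO_C5-only and 0 KO_D2-only among 111. On chromosome 6 from 40 to 50 Mb it was 0.50 and 0.46, with 21 and 0 among 219. On chromosome 16 from 70 to 90 Mb, which holds MC1R, it was 0.46 and 0.43 over 153 regions, with 22 and 2 among 516. On chromosome 14 from 100 to 110 Mb it was 0.37 and 0.66, with 14 and 0 among 148. Over all regions the shares were 3.87% KO_C5-only and 0.794% KO_D2-only. The KO_C5-only count on chromosome 16 was near that share, and 0 KO_D2-only regions in a segment of this size is not a departure from 0.794%. Chromosome 1 from 10 to 20 Mb, next to the segment with higher pileup in KO_D2, had 0.41 and 0.33. Chromosome 7 thus held segments of both kinds.

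The caller's local background did not move with these segments. Between KO_C5 and KO_D2 the window medians of its log2 ratio lay between -0.07 and 0.05 in both treatments, over windows whose pileup differed by up to 0.89. Across 11551 regions found in all 8 lists, the background ratio of the untreated KO_C5 and KO_D2 libraries lay within 0.02 (log2) of its median at 38.9% of regions, and that of their IFNγ libraries at 42.4%. Between a KO and a WT library the share was 2.09% to 3.50%. The sources used here do not say which control each library was called against, and whether the clones differed in DNA copies was not tested.

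The WT clones showed which KO clone stood apart in a segment. Here each library's log2 pileup was set against the mean of all 8 at regions found in every list. In the first 10 Mb of chromosome 1 (78 regions), KO_C5 was at -0.46 untreated and -0.68 after IFNγ, while KO_D2 was at 0.19 and 0.11 and the 4 WT libraries were between 0.13 and 0.20. On chromosome 4 from 180 Mb, KO_C5 was at -0.60 and -0.66, and the other 6 libraries were between 0.10 and 0.37. On chromosome 20 from 30 Mb, KO_C5 was at 0.31 and 0.28 and the other 6 libraries between -0.18 and -0.02. In these 3 segments KO_C5 was the clone outside the range of all others. On chromosome 4 from 70 to 80 Mb, KO_D2 was at -0.37 and -0.41, and the others were between -0.05 and 0.24. On chromosome 14 from 100 Mb, KO_D2 was at -0.29 and -0.48, and the others between 0.04 and 0.22. There KO_D2 was the clone outside.

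In other segments the KO clones each sided with a WT clone. In the first 10 Mb of chromosome 7, KO_C5 (-0.23 and -0.44) was near WT_5 (-0.31 and -0.38), and KO_D2 (0.41 and 0.35) was near WT_4 IFNγ (0.40), with WT_4 untreated at 0.06. On chromosome 16 from 70 Mb, KO_C5 (0.29 and 0.13) was near WT_5 (0.22 and 0.22), and KO_D2 (-0.21 and -0.28) was near WT_4 (-0.24 and -0.19). On chromosome 6 from 40 Mb, KO_C5 (0.17 and 0.26) lay with WT_5 (0.29 and 0.36), and KO_D2 (-0.22 and -0.24) lay with WT_4 (-0.34 and -0.24). The libraries of WT_4 did not always lie together, since on chromosome 7 from 90 Mb WT_4 untreated was at -0.44 and WT_4 IFNγ at 0.18.

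**Figure D4:**
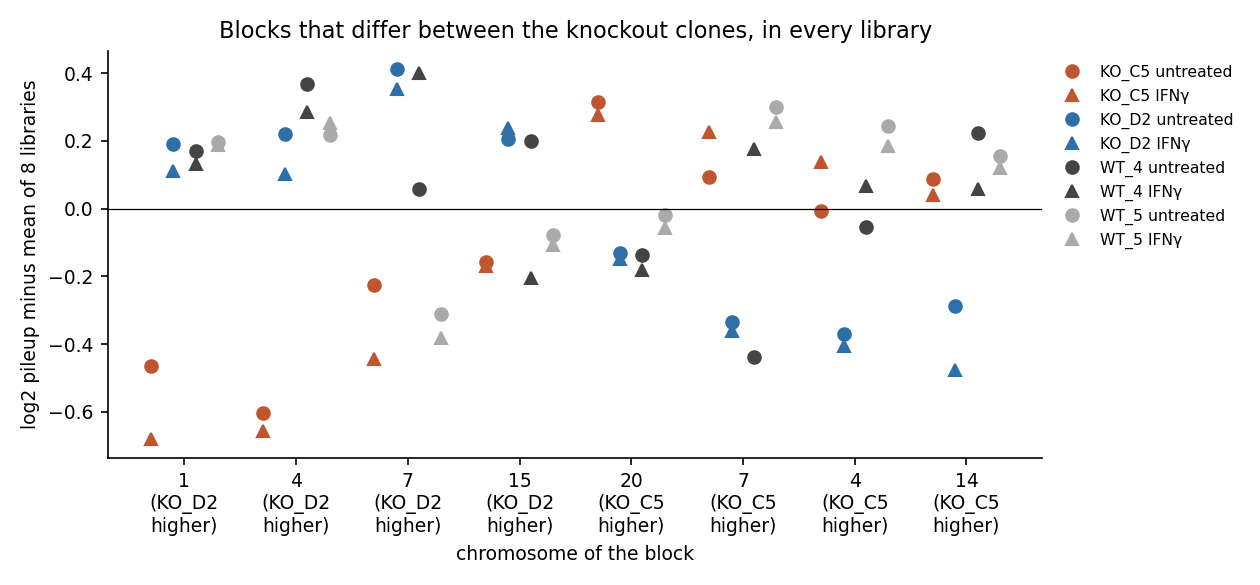
Median log2 summit pileup of each of the 8 libraries minus the mean of 8, in 8 segments that differ between the KO clones, named by chromosome and by the KO clone with the higher pileup. Circles are untreated and triangles IFNγ libraries. KO_C5 lies below all other libraries in the segments of chromosomes 1 and 4 marked KO_D2 higher and above them on chromosome 20, and KO_D2 lies below all others in the segments of chromosomes 4 and 14 marked KO_C5 higher.

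Single promoters shared by both clones also differed in rank. Among the 12495 regions in all 4 lists, 323 (2.59%) ranked at least 20 percentile points higher in both KO_C5 libraries than in both KO_D2 libraries, and 13 (0.104%) the other way round. This imbalance came down with list length, to 115 and 79 at equal length. NEGR1, a neuronal adhesion gene, had a promoter pileup of 65 and 60 in KO_C5 and 11 and 12 in KO_D2, at percentiles of 77.9 and 73.9 against 14.9 and 14.9. SP7, which encodes the osteoblast factor osterix, had 47 and 52 against 16 and 24. HR, a corepressor gene, had 33 and 44 against 10 and 13, NOL3 had 36 and 52 against 13 and 13, and STBD1 had 35 and 59 against 14 and 18. In the other direction, ATN1 had 39 and 50 in KO_C5 against 97 and 120 in KO_D2. SQSTM1, an autophagy receptor gene, had 36 and 65 against 97 and 136. CSK, a kinase that restrains SRC, had 17 and 25 against 44 and 48, CPE had 20 and 25 against 46 and 43, and C14orf39 had 24 and 31 against 46 and 68. The 4 libraries did not overlap between clones at any of these 10 promoters, as the rule demands.

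Distal KO_C5-only regions held RUNX letters more often than distal KO_D2-only regions. RUNX proteins are a family of DNA-binding factors, and RUNX2 directs the osteoblast lineage. The letters TGTGGTT, on either strand within 100 bp of the summit, occurred in 18.9% of the 872 KO_C5-only regions beyond 1 kb of a TSS and in 1.78% of the 169 KO_D2-only regions there, against 8.79% of all 16778 distal regions. At equal length the shares were 16.0% of 244 and 2.80% of 321 regions, and within 50 bp of the summit they were 10.2% and 0.592% with all peaks. SOX letters (ACAAAG) occurred in 21.2% and 7.1%, against 14.3% of all distal regions, and at equal length in 18.9% and 9.35%. GATA letters (AGATAA) occurred in 10.2% and 2.96%, against 5.44%, and at equal length in 5.74% and 2.49%, against 5.55%. TEAD letters (GGAATG) occurred in 24.3% and 13.0%, and at equal length in 18% and 16.2%. AP-1 letters (TGANTCA) occurred alike in both, in 32.9% and 33.7%, although at equal length they were in 23.4% of KO_C5-only and 39.6% of KO_D2-only regions. The control hexamer GTGAGT was found in 18.5% and 20.1%, and at equal length in 11.1% and 20.6%. It shares letters with AP-1 matches such as GTGAGTCA, so it is not a control independent of the AP-1 letters. The telomeric hexamer TTAGGG, which ZBTB48 binds, was in 5.39% and 1.78% with all peaks, against 4.50% of all distal regions, and at equal length in 4.10% and 4.98%, the other way round.

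Base composition moved with these shares. The median GC content of the 201-base windows was 44.3% in distal KO_C5-only and 59.7% in distal KO_D2-only regions, and 55.7% and 59.2% at equal length. Where GC was at least 40% and below 50%, the RUNX letters occurred in 83 of 364 KO_C5-only and 1 of 26 KO_D2-only regions. Between 50% and 60% they occurred in 27 of 170 and 1 of 56, and at equal length in 22 of 107 and 4 of 127. Between 60% and 70%, the band with most KO_D2-only regions, they were rare in both sets, in 2 of 54 and 1 of 68. At equal length this band had 2 of 49 and 3 of 140. From 70% they occurred in 0 of 64 and 0 of 16. The sets thus differed in the bands from 40% to 60% and not above. By library, the RUNX letters were in 14.1% of distal peaks of KO_C5 untreated, whose median GC was 46.3%, the lowest of the 8. They were in 7.15% for KO_C5 IFNγ, 3.92% for KO_D2 untreated and 5.25% for KO_D2 IFNγ, and between 4.00% and 7.67% in the WT libraries. The untreated KO_C5 library thus stood apart in both measures. Distal regions found in that list alone held the letters in 20.2% of 2323 cases, against 7.71% of 3670 found in KO_C5 IFNγ alone. Of 241 distal regions found only in KO_C5 untreated and KO_D2 IFNγ, 15.4% held them. The letters were thus not particular to KO_C5-only regions. The part of the untreated KO_C5 library in the share of the KO_C5-only regions was not tested. At the 76 distal regions in all 4 lists with RUNX letters, the log2 pileup of KO_C5 minus KO_D2 had a median of -0.09 untreated and 0.14 after IFNγ, beside -0.08 and 0.02 without them.

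**Figure D5:**
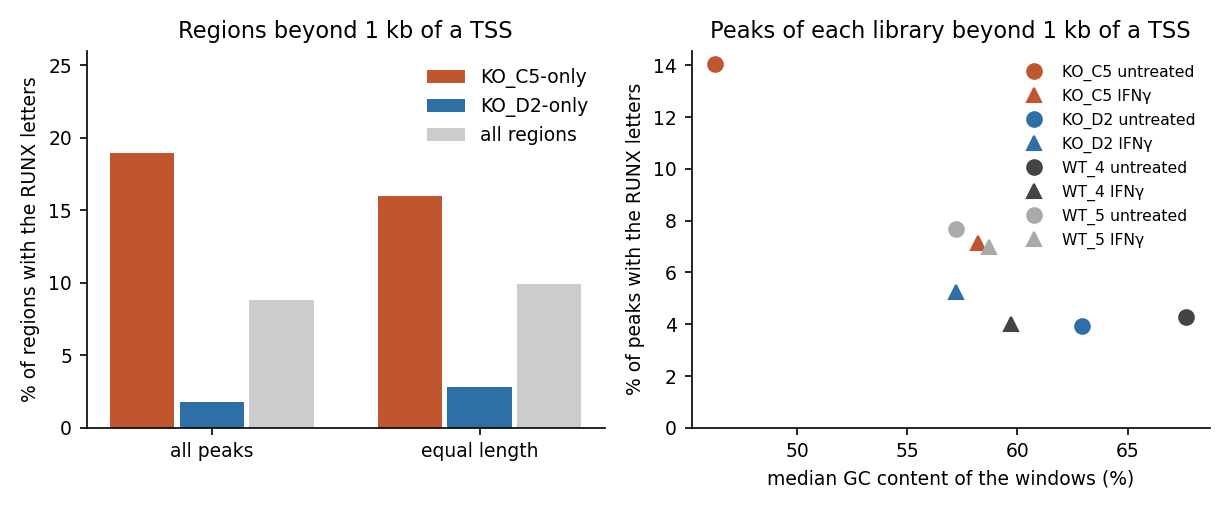
Left, share (%) of distal regions with the RUNX letters within 100 bp of the summit, for the clone-only sets and all regions, with all peaks and at equal length. Right, the same share for the distal peaks of each library against their median GC content (%). KO_C5 untreated stands at 14.1% and 46.3% GC, apart from the other 7 libraries.

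Sequences are shown for some strong distal KO_C5-only regions with these letters and no annotated exon in the window. Not all such regions were searched, so stronger ones may exist. Each sequence gives 101 bases of the GRCh38 plus strand around the summit, and capitals mark the RUNX letters on either strand.
KO_C5-only, chr2:27761634-27761734: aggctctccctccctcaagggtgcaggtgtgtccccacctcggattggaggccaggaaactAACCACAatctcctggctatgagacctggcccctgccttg
KO_C5-only, chr14:68147008-68147108: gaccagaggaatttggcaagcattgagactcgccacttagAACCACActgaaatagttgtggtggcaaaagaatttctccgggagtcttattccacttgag
KO_C5-only, chr14:52458045-52458145: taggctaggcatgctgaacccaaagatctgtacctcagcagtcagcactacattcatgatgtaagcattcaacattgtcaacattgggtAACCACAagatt
The first is intergenic, 9691 bp from MRPL33, with summit pileups of 31 untreated and 57 after IFNγ in KO_C5. The second lies in an intron of an annotated gene, and the nearest coding TSS, that of RAD51B, is 146608 bp away. Its pileups were 52 and 22. The third lies in an intron near TXNDC16, with pileups of 37 and 32.

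The strongest distal KO_D2-only regions with AP-1 letters are shown in the same way, with those letters in capitals.
KO_D2-only, chr11:100750426-100750526: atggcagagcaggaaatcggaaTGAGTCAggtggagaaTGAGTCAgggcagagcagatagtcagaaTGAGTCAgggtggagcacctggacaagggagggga
KO_D2-only, chr7:543325-543425: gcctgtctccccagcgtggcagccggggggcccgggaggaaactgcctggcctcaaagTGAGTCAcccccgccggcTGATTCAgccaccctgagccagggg
The first is the ARHGAP42 intron described above and holds 3 AP-1 matches, and the second, near PRKAR1B-AS2 in the chromosome 7 segment, holds 2. A match to letters is a description of the sequence and does not show that a factor was bound.

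Promoters of the osteoblast lineage were compared because SP7 and the RUNX letters both stood with KO_C5. RUNX1 had summit pileups of 127 and 153 in KO_C5 and 66 and 81 in KO_D2. RUNX2 had 15 and 18 against 12 and 11, and RUNX3 had 39 and 124 against 19 and 67. All 3 were higher in KO_C5 in each treatment, by counts that are not scaled between libraries. PTH1R, the parathyroid hormone receptor gene, had 15 and 15 in KO_C5 and no peak in KO_D2. BMP4 had 141 and 176 against 93 and 94. ATF4 had 71 and 232 against 78 and 193, and COL1A1 had no peak in KO_C5 untreated but 112 after IFNγ, against 42 and 76 in KO_D2. SPARC likewise had no peak in KO_C5 untreated. These promoters were named after their values were seen.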

How the data were processed

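Peak lists of 8 FAIRE-seq libraries were used. The authors trimmed reads with trimmomatic, aligned them to GRCh38 with bowtie2 2.2.5, filtered alignments by mapping quality in samtools 1.14, and called the peaks of each library with MACS 2.2.7.1. The control and the treatment of duplicates are not given in the sources used here. The deposited fold enrichment is the authors' ratio of summit pileup to local background. For each summit the caller's −log10 p, and a −log10 q adjusted within the library, were deposited by the authors. The deposited score was not used.

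The pileup at each summit and its background were recovered by inverting the Poisson test of MACS, and a whole number of fragments gave back the deposited −log10 p to within 0.05 for 100% of peaks. Read depth is not in the files, and these pileups stand in for it. Genes are those of GENCODE 44, and sequences were read from GRCh38.

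Clones were compared over 4 libraries by an exact permutation test of 6 assignments. The 2 libraries of a clone differ in treatment, so the SD within a clone holds the treatment difference, and no spread between replicates could be measured. This test does not take treatment into account. The 10 clone-only regions and the 10 clone-only coding promoters per clone with the highest mean percentile were named, with up to 5 genes holding most clone-only regions (at least 3), 5 shared promoters per direction, clone-only members of gene lists, the chromosomes and segments that departed most, and ZBTB48 with its reported targets. Gene lists were set by hand, and the result of 1 list is not reported here. The members and lists were chosen with earlier results of these data known, and the pileup of 10 Mb windows, their limit of 0.3, and the RUNX and osteoblast comparisons were chosen after seeing the data. Code was tested on simulated lists. Python 3.11.15, numpy 2.4.6, pandas 2.3.3 and scipy 1.17.1 were used.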

Additional observations from a re-analysis of the deposited data

Results flagged for a closer look

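The distal peaks of the KO clones, those beyond 1 kb of a TSS, changed in opposite directions between the untreated and the IFNγ library. These differences were not tested, since each is between 1 library and 1 library of a clone. Median GC content was 11.9 percentage points higher after IFNγ in KO_C5 and differed by -5.72 points in KO_D2. The share of peaks with RUNX letters differed by -6.90 points in KO_C5 and by 1.33 points in KO_D2. The share with AP-1 letters differed by -4.74 points in KO_C5 and by 11.9 points in KO_D2.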

How the results depend on the processing

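Cutting the lists to equal length gave 445 KO_C5-only regions with 45.2% within 1 kb of a TSS and 99.8% with a WT peak, and 558 KO_D2-only regions with 95.9% with a WT peak. It gave 115 regions ranked higher in KO_C5 and 79 in KO_D2. With protein-coding TSS alone, the shares within 1 kb were 29.4% (KO_C5-only) and 28.6% (KO_D2-only). Summit windows gave 52.9% for KO_D2-only regions, and joining peaks within 1 kb gave 32.0% for KO_C5-only regions. A limit of 30 points left 59 and 1 ranked regions, and ranks by fold enrichment gave 21 for KO_D2. The cause was not tested.

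Leaving out each library gave 1826 to 6642 KO_C5-only regions (23.8% to 41.2% within 1 kb, 50.7% to 90.6% with a WT peak) and 343 to 4056 KO_D2-only regions (24.4% to 49.7%, 49.9% to 98.3%). Regions ranked higher numbered 612 to 1655 for KO_C5 and 20 to 872 for KO_D2. The difference of KO_C5 minus KO_D2 ranged from -1473.5 to 6728.5 peaks, from -13.6 to 1.78 points within 1 kb, from 1.15 to 8.36 points beyond 10 kb and from -1.69 to 2.17 in median fold enrichment. Leaving out 1 library unbalances treatment between the clones, so these ranges mix treatment with clone.

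The 12 and 21 windows that differed became 11 and 17 at equal length, 12 and 23 by fold enrichment, 17 and 18 with 5 Mb windows, 14 and 39 at a limit of 0.2, and 5 and 12 at 0.4. These alternatives were chosen after seeing the data. Stricter limits (−log10 q from 3, or enrichment from 4) and an overlap of 0.5 kept every count of clone-only regions within 1.5 times. The replicate numbers in the labels' titles name the clones compared (1 is KO_C5, 2 is KO_D2), so they pair no libraries between the clones. Libraries were matched by treatment instead, and with treatment as a block the 4 library differences were as before, with a lowest possible p of 0.5. Weak sites limit all counts, since a peak missing from a list may be only below its limit.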
